A study of Mus musculus with 12 samples.

Results

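Secreted modulators of Wnt signalling were followed in mouse ventral midbrain neurospheres that had been treated with a liver X receptor agonist, a GSK3 inhibitor or both. The set was 10 genes chosen by name among the 23965 gene rows of the deposited table: the R-spondins Rspo1, Rspo2, Rspo3 and Rspo4, their receptor Lgr4, the secreted frizzled-related genes Sfrp1, Sfrp2 and Frzb, the Wnt inhibitory factor Wif1, and Dkk3. Each had exactly 1 row. A filter on low counts kept 9 of the 10 for testing, and Rspo4 was too scarce.

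R-spondins are secreted proteins that bind Lgr receptors and keep the membrane E3 ligases Znrf3 and Rnf43 from removing Frizzled receptors, so that a cell answers more strongly to Wnt. Secreted frizzled-related proteins and Wif1 bind Wnt ligands outside the cell, and Dkk3 is a divergent relative of the Dickkopf inhibitors whose place in the pathway is less settled. In the mouse ventral midbrain Wnt signals act on the floor plate progenitors of dopaminergic neurons, where Rspo2, Sfrp1 and Sfrp2 have known roles.

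The neurospheres were grown from CD-1 embryos at E11.5, expanded, and switched to N2 medium for a treatment of 5 h. The 4 groups, with 3 libraries each numbered 1 to 3, were GW3965+CT99021, CT99021, GW3965 and Control. GW3965 activates the liver X receptor (LXR), CT99021 inhibits glycogen synthase kinase 3 and thereby stabilises beta-catenin, and Control received the DMSO vehicle. What a number stands for (dissection, culture or run) and how many embryos were pooled is not in the labels, so the p-values rest on a spread among libraries that may be technical.

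Libraries held 9646424 to 21314093 gene counts. Levels are given in CPM, the count scaled to library size with TMM factors. Libraries differed by replicate number: those of the same number deviated from their group means together in all 18 pairs (r = 0.5 to 0.83 across genes), and the 4 libraries numbered 3 lay at least 1.5 times above or below the other 8 in 610 of 15608 tested genes. The 4 libraries numbered 3 together with GW3965+CT99021 replicate 2 did so in 208 genes. Lars2 took 7.95% of the counts of CT99021 replicate 1, against 0.0336% to 0.142% in the other 11 libraries. Fold changes below therefore come, unless a sentence says otherwise, from an edgeR quasi-likelihood fit that carries the number as a block (the blocked fit). The words "rose" and "fell" mean a Benjamini-Hochberg adjusted p under 0.05 in it, and for the members the fit without the block stands beside each call. Axin2, a direct target of beta-catenin, marked the action of CT99021: its log2 fold change was 1.68 ± 0.14 (SE) in CT99021 against Control (edgeR adjusted p = 1.4e-04), with log2 ratios of 1.93, 1.83 and 1.25 for numbers 1, 2 and 3. Srebf1, a target of LXR, rose by 1.40 ± 0.09 in GW3965 against Control (edgeR adjusted p = 2.6e-04), with ratios of 1.23, 1.33 and 1.64. It also rose by 0.42 ± 0.09 in CT99021 against Control (adjusted p = 0.013). Without the block these 3 calls did not pass (edgeR adjusted p = 0.438 for Axin2, and 0.153 and 0.475 for Srebf1).

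All 8 ventral midbrain and floor plate markers, among them Foxa2, Lmx1a and Otx2, had counts, and their summed level was 388 to 507 CPM with GW3965+CT99021, 405 to 558 with CT99021, 386 to 624 with GW3965 and 383 to 577 in Control. Markers of other cells were present too. The 10 genes of mesenchyme and pericytes summed to 1230 to 2310 CPM in libraries numbered 1, 242 to 965 in those numbered 2 and 2680 to 4080 in those numbered 3, and 4 erythroid genes to 1990 to 3130, 4970 to 6050 and 6700 to 10700 CPM. Endothelial and microglial markers stayed at or below 50.9 and 28.4 CPM in sum, and 4 neuronal genes summed to 1020 to 1960 CPM with GW3965+CT99021, 1160 to 1700 with CT99021, 1230 to 1920 with GW3965 and 1340 to 1930 in Control.

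In Control libraries Wif1 and Dkk3 had the highest mean levels and the R-spondins Rspo1 and Rspo4 the lowest. Per kilobase of listed transcript, Wif1 was highest at 21.1 ± 3.52 CPM per kb (SD, n = 3), followed by Dkk3 at 15.6 ± 6.63, Sfrp2 at 10.3 ± 3.44 and Sfrp1 at 9.38 ± 3.58. Lgr4 at 7.92 ± 3.56, Rspo2 at 7.87 ± 7.30, Frzb at 7.57 ± 2.19 and Rspo3 at 5.73 ± 2.28 CPM per kb came next. From Wif1 down to Rspo3, each gene overlapped with its neighbour in this order. Rspo1 at 1.45 ± 0.557 CPM per kb lay below all 3 Rspo3 values, and Rspo4 at 0.123 ± 0.072 below all 3 Rspo1 values. Among the 15608 tested genes, Wif1 stood at the 76.2 percentile of Control level per length and Dkk3 at the 68.1 percentile, Rspo2 at 48.1 and Rspo1 at 17.3.

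**Figure D1:**
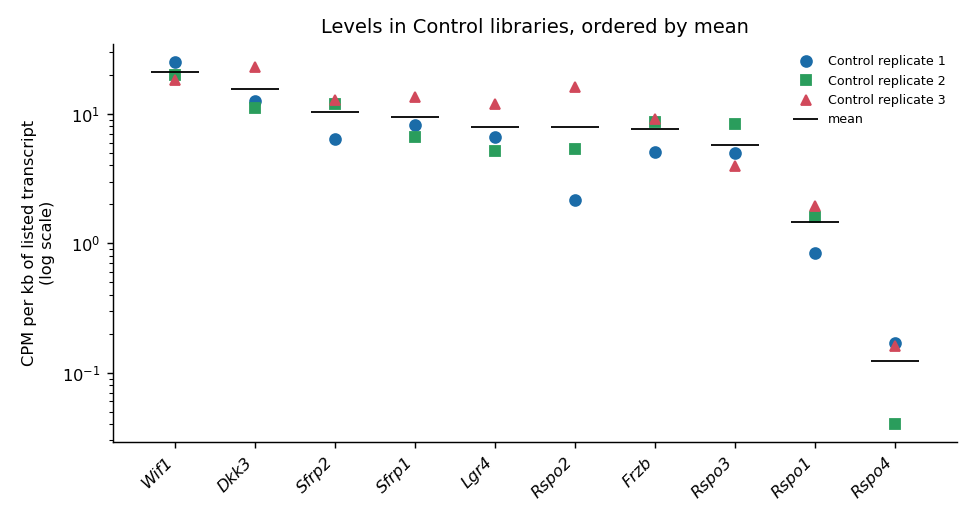
Level of each gene in the 3 Control libraries, in CPM per kb of listed transcript on a log axis, ordered by the mean (black line). Wif1 (mean 21.1) leads, each of the next 7 genes overlaps with the one above it, and Rspo1 (1.45) and Rspo4 (0.123) stand apart at the low end.

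The secreted modulators did not move as a group with CT99021. Rspo2 was the member that fell in every contrast of CT99021, Lgr4 rose in GW3965+CT99021 against GW3965, and Wif1 and Dkk3 had higher values with CT99021 in numbers 1 and 2 but not in number 3, both in CT99021 against Control and in GW3965+CT99021 against GW3965. In CT99021 against Control, 1 of 9 tested members passed (Rspo2, lower), against 15.8% of all 15608 genes tested. In GW3965+CT99021 against Control it was again 1 of 9 (Rspo2, lower), against 20.3% of all genes, and in GW3965+CT99021 against GW3965 it was 2 of 9 (Rspo2 lower, Lgr4 higher), against 20.6%. These shares are near the background, and the members' median log2 fold changes were 0.11, 0.15 and 0.24, against 0.02, 0.01 and 0.01 over all genes. The first and the third of these contrasts share no library, while the first and second share the Control libraries. Without the block edgeR called 0 of 9 members in each of the 3 contrasts, where it called 0.0577%, 0.115% and 0.0769% of all genes. At an unadjusted p under 0.05 it had 0, 1 and 0 members, and the blocked edgeR fit had 3, 4 and 6 of 9. The share of all genes at that unadjusted threshold is not given here, so these counts are not set against a background. DESeq2 without the block called 0 of the 8, 9 and 9 members to which it gave an adjusted p.

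The members also differed among themselves in how they varied with the number, whatever the treatment. Rspo2 had 5.15 to 9.20 CPM in the 4 libraries numbered 1, 7.35 to 18.7 in those numbered 2 and 31.2 to 60.0 in those numbered 3, and was the 1 member of 9 whose libraries numbered 3 lay at least 1.5 times from all others. Lgr4 (52.1 to 66.8 CPM) and Dkk3 (65.8 to 80.3 CPM) were also highest in number 3, without overlap with the other numbers. Rspo3 was highest in number 2 (14.5 to 23.1 CPM), lower in number 1 (8.54 to 13.3) and mostly lowest in number 3 (3.99 to 9.91). Sfrp2 was lower in number 1 (13.4 to 16.9 CPM) than in number 2 (21.8 to 28.4).

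**Figure D2:**
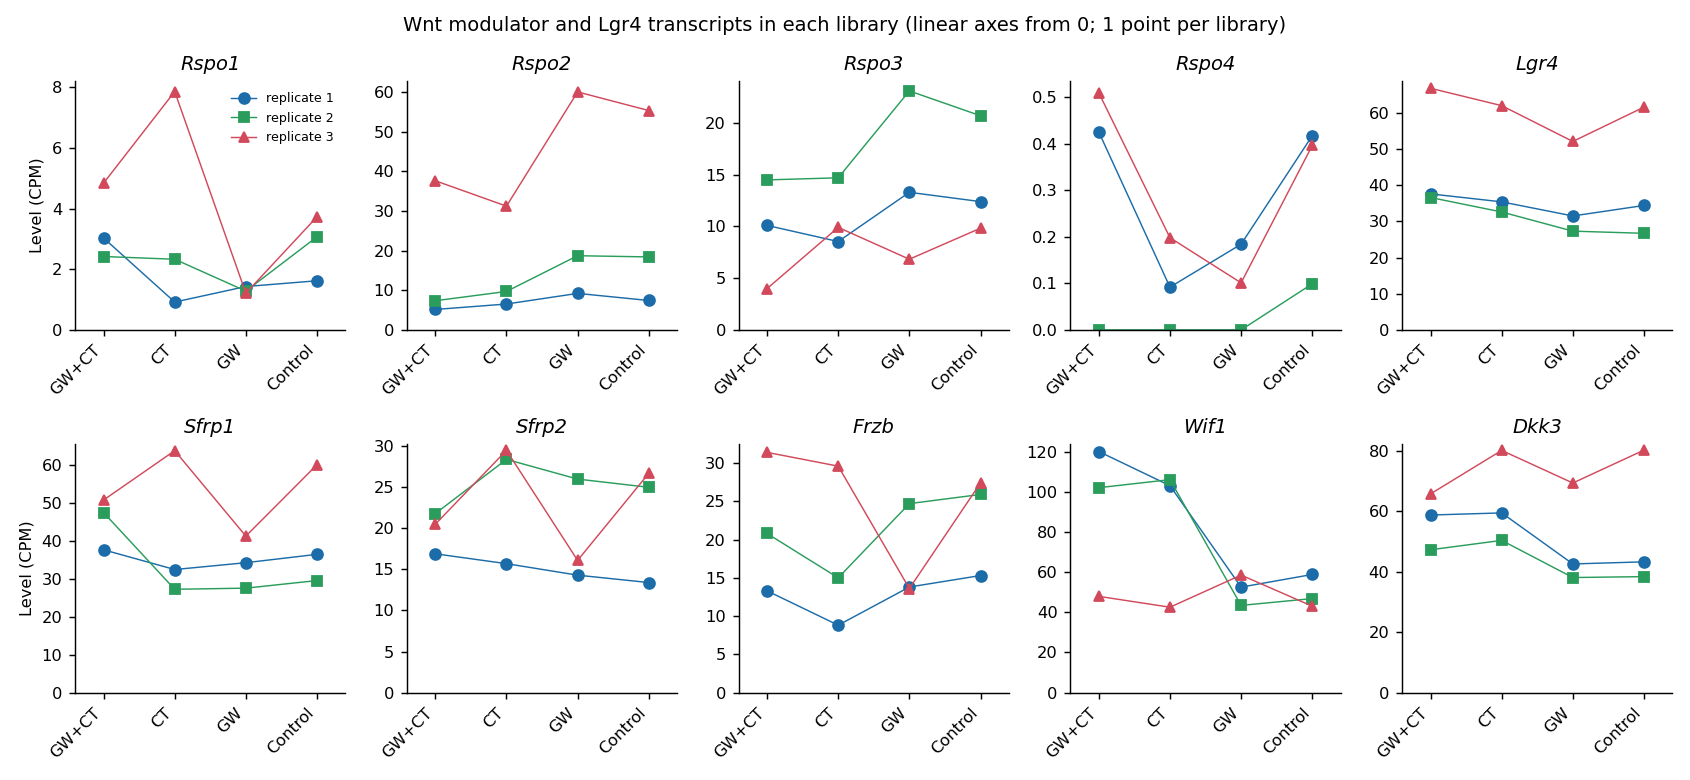
Level of each gene in each of the 12 libraries, in CPM on linear axes from 0, with groups along the horizontal axis (GW+CT, GW3965+CT99021; CT, CT99021; GW, GW3965) and lines joining libraries of the same number. Rspo2 is highest in the 4 libraries numbered 3 (31.2 to 60.0 CPM), and Wif1 exceeds 100 CPM in the libraries with CT99021 numbered 1 and 2 and stays at 42.5 and 47.9 CPM in those numbered 3.

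Rspo2 encodes the R-spondin of this family with a known role in midbrain dopaminergic development, and its row is listed at position 42852340 of chromosome 15 (minus strand, mm9). For numbers 1, 2 and 3 it had 5.15, 7.35 and 37.6 CPM with GW3965+CT99021 and 9.20, 18.7 and 60.0 CPM with GW3965. With CT99021 alone it had 6.52, 9.69 and 31.2 CPM, against 7.41, 18.4 and 55.3 CPM in Control. The library numbered 3 was the highest in each group, so the groups overlapped, but within each number every library with CT99021 lay below its counterpart without it, in 6 of 6 pairs.

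The log2 fold change of Rspo2 was -0.69 ± 0.17 in CT99021 against Control, a level 0.618 times that of Control (edgeR adjusted p = 0.0235 when blocked, 0.905 unblocked). It was -0.92 ± 0.17 in GW3965+CT99021 against GW3965, 0.53 times (adjusted p = 0.00539 when blocked, 0.841 unblocked), and -0.78 ± 0.17 in GW3965+CT99021 against Control (0.0111 and 0.873). The fall against GW3965 passed in each of 17 alternative blocked fits. The fall in CT99021 against Control did not pass without replicate 2 or 3 of either group (adjusted p up to 0.129). Its log2 fold change was -0.83 to -0.54 over all 12 blocked fits with 1 library left out. The fall of GW3965+CT99021 against Control did not pass without Control replicate 2 (0.0603).

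Some markers of other cell types passed in these contrasts. Over all genes, 15.8% passed in CT99021 against Control, 20.6% in GW3965+CT99021 against GW3965 and 20.3% in GW3965+CT99021 against Control. The counts for ventral midbrain, endothelium and microglia were near those shares. In RNA from whole cultures fewer cells of a type and less RNA per cell cannot be told apart. Of the 8 ventral midbrain markers 1, Lmx1b, fell in CT99021 against Control, and 2, Lmx1b and Foxa2, fell in GW3965+CT99021 against GW3965. Of the 7 neural progenitor genes 3 fell in CT99021 against Control (Sox1, Sox2 and Nes) and 5 in GW3965+CT99021 against GW3965 (also Pax6 and Fabp7), and their sum was 2610 to 3610 CPM with GW3965+CT99021 and 2480 to 3540 with CT99021, against 2940 to 4300 with GW3965 and 2700 to 4220 in Control. Of the 10 mesenchymal genes 1 rose in CT99021 against Control (Twist1) and 5 in GW3965+CT99021 against GW3965 (also Col3a1, Col1a2, Foxc1 and Foxd1), and their sum was 965 to 3320 CPM with GW3965+CT99021 and 358 to 4080 with CT99021, against 255 to 2680 with GW3965 and 242 to 3140 in Control. Some listed genes had mean levels in the opposite direction. Pdgfrb of this list averaged 66.8 CPM with GW3965+CT99021, against 94.9 with GW3965, and 60.3 with CT99021, against 78.2 in Control. The progenitor gene Hes5 averaged 5.18 against 3.59 and 6.63 against 4.93 CPM in the same groups. Neither gene passed. Of the 4 neuronal genes, Tubb3 rose and Dcx fell in CT99021 against Control, and 0 passed in GW3965+CT99021 against GW3965. The endothelial gene Kdr fell by 0.60 ± 0.16 in CT99021 against Control and by 0.60 ± 0.15 in GW3965+CT99021 against GW3965 (edgeR adjusted p = 0.0289 and 0.0221), 1 of 5 genes of its list. The 5 genes had median log2 fold changes of -0.45 and 0.12 in these contrasts, so the list did not follow Kdr in the second. The microglial gene Cx3cr1 fell by 1.57 ± 0.27 and 0.93 ± 0.27 (0.00609 and 0.0362), 1 of 4 tested, and 0 of 4 erythroid genes passed in these contrasts. For GW3965+CT99021 against Control, Lmx1b, Sox1, Sox2, Pax6, Fabp7, Stmn2, Cx3cr1 and the erythroid Hbb-y fell and Twist1, Col3a1, Col1a2 and Foxc1 rose. Without the block 0 genes of these marker lists passed. The part of these cells in the change of Rspo2 was not tested.

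Rspo3, the R-spondin known best from placental and vascular development, had 10.1, 14.5 and 3.99 CPM with GW3965+CT99021 and 13.3, 23.1 and 6.83 CPM with GW3965 (numbers 1, 2 and 3). It had 8.54, 14.7 and 9.91 CPM with CT99021, against 12.4, 20.7 and 9.83 CPM in Control. Here number 2 was the highest and the groups overlapped, with lower values in 5 of the 6 pairs with CT99021 and a log2 ratio of 0.01 in the remaining one. The log2 fold changes of -0.31 ± 0.24 in CT99021 against Control and -0.58 ± 0.25 in GW3965+CT99021 against GW3965 did not pass (edgeR adjusted p = 0.426 and 0.12). In the 8 libraries not numbered 3 they were -0.53 ± 0.12 and -0.56 ± 0.12 and passed (edgeR adjusted p = 0.0205 and 0.0142). Leaving out CT99021 replicate 3 alone also brought both past the test (0.0499 and 0.0376), with log2 fold changes of -0.66 and -0.59, and likewise the -0.63 ± 0.25 of GW3965+CT99021 against Control (adjusted p = 0.026, and 0.0964 with that library).

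Rspo1, an R-spondin known from ovary determination in mice, was scarce. It had 3.03, 2.42 and 4.84 CPM with GW3965+CT99021, 0.918, 2.33 and 7.86 CPM with CT99021, 1.43, 1.28 and 1.21 CPM with GW3965 and 1.62, 3.07 and 3.73 CPM in Control. Its GW3965 libraries lay below all 6 libraries of GW3965+CT99021 and Control, from 12 to 31 counts each. Against GW3965 its level with GW3965+CT99021 was 2.38 times as high by the fit (log2 fold change 1.25 ± 0.48, edgeR adjusted p = 0.0932), and against Control its level with GW3965 was 0.52 times (-0.94 ± 0.48, adjusted p = 0.959). Neither passed. Without CT99021 replicate 3, the library with the highest Rspo1, the difference between GW3965+CT99021 and GW3965 passed (edgeR adjusted p = 0.0282). The log2 fold change of Rspo1 in CT99021 against Control was 0.22 ± 0.45 with that library and -0.55 ± 0.41 without it.

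Rspo4 was near the limit of detection, with 14 counts over the 3 GW3965+CT99021 libraries, 4 with CT99021, 5 with GW3965 and 16 in Control. The ratio of CT99021 to Control was 0.311 with an exact 95% interval of 0.0755 to 0.963, and that of GW3965+CT99021 to GW3965 was 2.86 with an interval of 0.974 to 10.2. These intervals cover counting error only, and Rspo4 was left out by the filter on low counts. In fits without that filter, where it was tested, it did not pass in any contrast.

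Lgr4 encodes the R-spondin receptor with the widest expression of its family and is listed at position 109757703 of chromosome 2. It had 37.6, 36.6 and 66.8 CPM with GW3965+CT99021, against 31.5, 27.3 and 52.1 CPM with GW3965. With CT99021 alone it had 35.4, 32.6 and 62.0 CPM, against 34.4, 26.7 and 61.6 CPM in Control. Number 3 was high in every group and the groups overlapped in both contrasts, but within each number the library with CT99021 was above its counterpart. Lgr4 rose 1.27-fold (log2 fold change 0.34 ± 0.08) in GW3965+CT99021 against GW3965 (edgeR adjusted p = 0.0163 when blocked, 0.817 unblocked), and had 0.11 ± 0.08 in CT99021 against Control (adjusted p = 0.397). The difference between these effects, the interaction of 0.24 ± 0.12, did not pass (edgeR adjusted p = 0.999). The rise did not pass without GW3965 replicate 1, 2 or 3 or without GW3965+CT99021 replicate 2 (adjusted p up to 0.0768). Its log2 fold change was 0.29 to 0.38 over all 12 blocked fits with 1 library left out. In GW3965+CT99021 against Control it had 0.23 ± 0.08 (edgeR adjusted p = 0.0719).

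**Figure D3:**
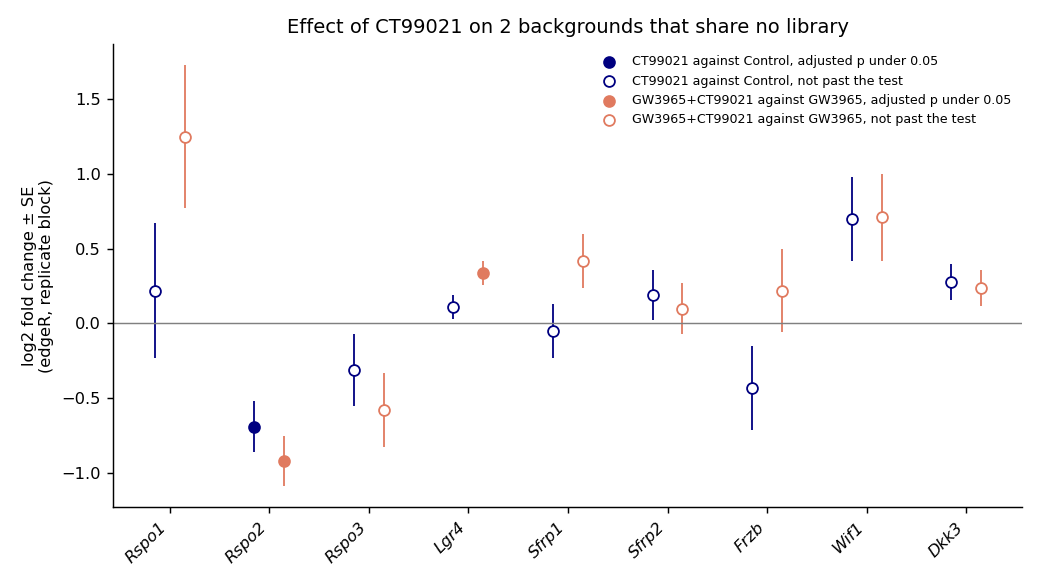
log2 fold change ± SE of the 9 tested genes from the blocked edgeR fit, for GW3965+CT99021 against GW3965 (orange) and CT99021 against Control (navy). Filled points have an adjusted p under 0.05: Rspo2 in both contrasts (-0.92 and -0.69) and Lgr4 in the contrast with GW3965 (0.34).

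The secreted frizzled-related genes showed no common direction. Sfrp1 had 37.6, 47.4 and 50.7 CPM with GW3965+CT99021 and 34.2, 27.5 and 41.2 with GW3965, and 32.4, 27.2 and 63.7 CPM with CT99021 against 36.4, 29.5 and 60.0 in Control. Its log2 fold changes were 0.42 ± 0.18 against GW3965 and -0.05 ± 0.18 against Control (edgeR adjusted p = 0.137 and 0.888). GW3965+CT99021 replicate 2 gave the largest log2 ratio to its GW3965 counterpart, 0.78 against 0.14 and 0.30 in numbers 1 and 3. Without it the log2 fold change against GW3965 was 0.15 ± 0.15.

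Sfrp2 had 16.9, 21.8 and 20.5 CPM with GW3965+CT99021 and 14.3, 26.0 and 16.1 with GW3965. It had 15.7, 28.4 and 29.5 CPM with CT99021 against 13.4, 25.0 and 26.7 in Control, higher in 3 of 3 pairs by log2 ratios of 0.14 to 0.23. Its log2 fold changes of 0.10 ± 0.17 and 0.19 ± 0.17 did not pass (edgeR adjusted p = 0.734 and 0.49). For GW3965+CT99021 against Control, Sfrp1 had 0.18 ± 0.18 and Sfrp2 -0.08 ± 0.17 (edgeR adjusted p = 0.523 and 0.774).

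Frzb, also called sFRP3, had 13.3, 20.8 and 31.4 CPM with GW3965+CT99021 and 13.8, 24.7 and 13.6 with GW3965, and 8.81, 15.0 and 29.6 CPM with CT99021 against 15.3, 25.9 and 27.4 in Control. CT99021 against Control gave log2 ratios of -0.77 and -0.79 in numbers 1 and 2 and 0.11 in number 3. The log2 fold change of -0.43 ± 0.28 did not pass (edgeR adjusted p = 0.336). In the 8 libraries not numbered 3 it was -0.81 ± 0.11 and passed (edgeR adjusted p = 0.00348), whereas GW3965+CT99021 against GW3965 had -0.17 ± 0.10 there (adjusted p = 0.239).

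Wif1 encodes a secreted protein that binds Wnt ligands. Among the 5 genes Sfrp1, Sfrp2, Frzb, Wif1 and Dkk3, Wif1 showed the largest log2 fold changes in the 3 contrasts with CT99021. It had 120.0, 102 and 47.9 CPM with GW3965+CT99021, against 52.5, 43.4 and 58.5 CPM with GW3965. With CT99021 alone it had 103, 106 and 42.5 CPM, against 58.8, 46.8 and 43.0 CPM in Control. In numbers 1 and 2 the libraries with CT99021 stood at 102 to 120.0 CPM, and number 3 did not follow: the log2 ratios of numbers 1, 2 and 3 were 1.20, 1.22 and -0.29 in GW3965+CT99021 against GW3965, and 0.80, 1.18 and -0.02 in CT99021 against Control.

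Over all libraries the log2 fold changes of Wif1 were 0.71 ± 0.29 and 0.70 ± 0.28 in these contrasts, which did not pass (edgeR adjusted p = 0.108 and 0.127 when blocked, 0.452 and 0.559 unblocked). In the 8 libraries not numbered 3 they were 1.19 ± 0.09 and 0.98 ± 0.09 and passed (edgeR adjusted p = 7.7e-04 and 0.00133). That choice left out the number without a higher value, which favours a pass. In GW3965+CT99021 against Control, Wif1 was higher in 3 of 3 pairs (0.80 ± 0.28, adjusted p = 0.0713 in all libraries). Single libraries numbered 3 decided the call: Wif1 passed against GW3965 without GW3965 replicate 3 (adjusted p = 0.00926, log2 fold change 1.10). It passed in CT99021 against Control without CT99021 replicate 3 or GW3965 replicate 3 (smallest 0.0362), and in GW3965+CT99021 against Control without replicate 3 of any group but Control (smallest 0.0188). The Wnt targets Axin2 and Notum were higher with CT99021 in number 3, with log2 ratios of 1.60 and 2.49 in GW3965+CT99021 against GW3965, 1.25 and 2.54 in CT99021 against Control, and 1.03 and 1.84 in GW3965+CT99021 against Control. In the last of these they had 1.78 and 2.67 in number 1 and 1.82 and 2.70 in number 2. Lef1, another target, had 0.98 in number 3 and 1.93 and 1.98 in numbers 1 and 2 in CT99021 against Control. These ratios of numbers 1 and 2 cover only the contrast named with each. Over the 3 libraries of GW3965+CT99021, Axin2 spanned 82.8 to 381 CPM, Notum 8.32 to 111 and Lef1 52.5 to 120. With GW3965 the spans were 27.1 to 110, 1.31 to 15.9 and 16.2 to 33.5 CPM. A link of the ratios of these targets to the values of Wif1 was not tested. The mesenchymal sum of 2680 to 4080 CPM and the erythroid sum of 6700 to 10700 CPM were highest in the libraries numbered 3, and their part in the difference was not tested.

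Dkk3 is listed at position 119259532 of chromosome 7 and showed a smaller difference of the same form as Wif1. It had 58.8, 47.3 and 65.8 CPM with GW3965+CT99021 and 42.6, 38.1 and 69.4 with GW3965, and 59.5, 50.4 and 80.2 CPM with CT99021 against 43.3, 38.4 and 80.3 in Control. The log2 ratios were 0.47, 0.31 and -0.08 against GW3965 and 0.46, 0.39 and 0.00 against Control. The log2 fold changes of 0.24 ± 0.12 and 0.28 ± 0.12 did not pass (edgeR adjusted p = 0.182 and 0.15), and those of 0.37 ± 0.07 and 0.41 ± 0.07 in the 8 libraries not numbered 3 did (edgeR adjusted p = 0.00865 and 0.00716). Without GW3965+CT99021 replicate 3 the value against GW3965 passed (adjusted p = 0.0378), and without Control replicate 3 that against Control (0.0438).

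In those 8 libraries, 5 of 9 members passed in GW3965+CT99021 against GW3965 (Lgr4, Wif1 and Dkk3 higher, Rspo2 and Rspo3 lower), against 28% of all genes tested. In CT99021 against Control 4 of 9 passed (Wif1 and Dkk3 higher, Rspo3 and Frzb lower), against 25%. Rspo2 had -0.62 ± 0.22 there and did not pass (edgeR adjusted p = 0.0754). Without GW3965+CT99021 replicate 2 as well, 3 of 9 passed in GW3965+CT99021 against GW3965 (Wif1 and Dkk3 higher, Rspo2 lower), against 22.9%, and 5 of 9 in CT99021 against Control (Wif1 and Dkk3 higher, Rspo2, Rspo3 and Frzb lower), against 34%. In GW3965+CT99021 against Control, 4 of 9 passed in the 8 libraries (Wif1, Dkk3, Rspo2 and Rspo3), against 25.1%, and 2 of 9 in the 7 (Wif1 and Dkk3), against 18.6%. Since these libraries are a subset of the 12, their values are no independent repeat. In CT99021 against Control, number 3 was also the number in which Wif1, Dkk3, Rspo3 and Frzb did not show the difference. The same held for Wif1 and Dkk3 in GW3965+CT99021 against GW3965. Leaving number 3 out therefore favoured a pass, and these passes and counts are no separate support.

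**Figure D4:**
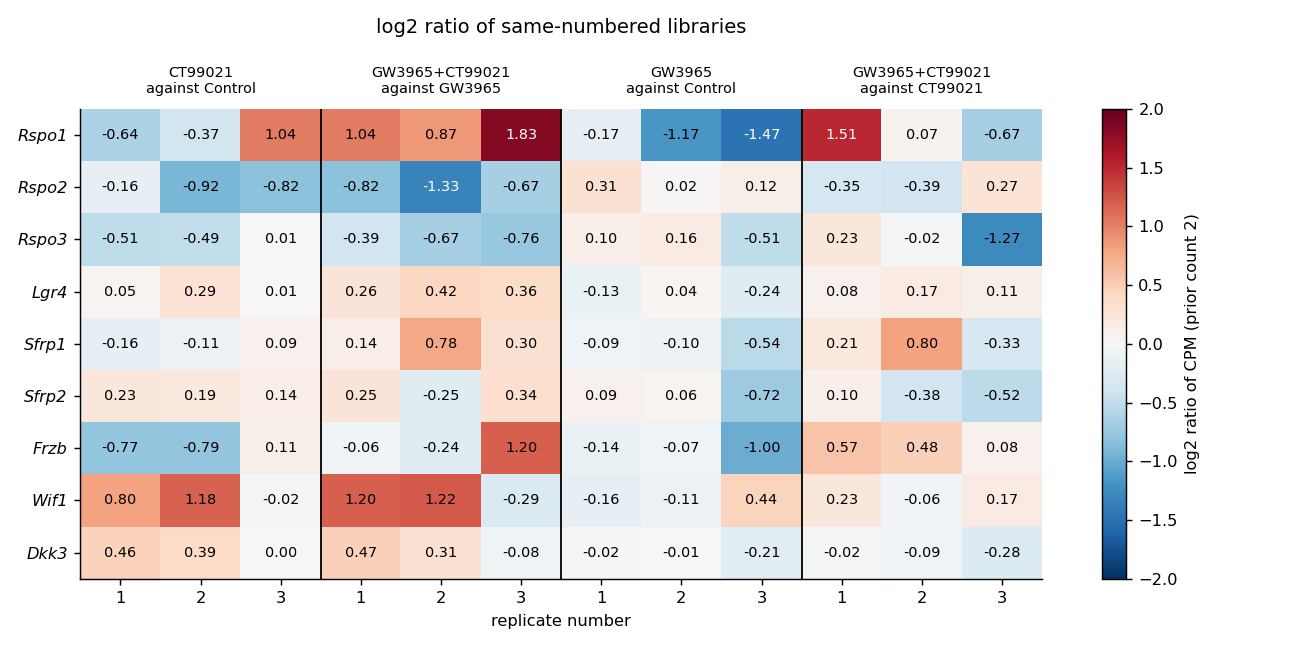
log2 ratio of CPM between libraries of the same number (columns 1, 2 and 3) for the 9 tested genes, in 4 contrasts. Wif1 and Dkk3 are higher with CT99021 in numbers 1 and 2 of the first 2 contrasts (0.31 to 1.22) and not in number 3 (-0.29 to 0.00), whereas Rspo2 is lower in all 6 columns (-1.33 to -0.16).

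No effect of GW3965 on the 9 tested members passed, alone or beside CT99021. In GW3965 against Control edgeR with the block called 0 of 9, against 0.0192% of all genes, and 0 of 9 had an unadjusted p under 0.05. Without the block it called 0 of 9 too, against 0% of all genes. For GW3965+CT99021 against CT99021 it also called 0 of 9, against 0.0192%, and 0 had an unadjusted p under 0.05. DESeq2 called 0 in both contrasts with and without the block. The log2 fold changes ran from -0.94 (Rspo1) to 0.13 (Rspo2) in GW3965 against Control and from -0.32 (Rspo3) to 0.33 (Frzb) in GW3965+CT99021 against CT99021. Standard errors ran from 0.08 (Lgr4) to 0.48 (Rspo1), and each member's own change could not be told from 0 at its own error. In GW3965 against Control the libraries of 1 of 9 members, Rspo1, did not overlap, against 2.78% of all genes. In GW3965+CT99021 against GW3965 it was again Rspo1 alone, higher, against 15.4%. The interaction of the compounds passed for 0 of 9 members and 0% of all genes (0 members at an unadjusted p under 0.05).

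Other receptors and inhibitors of the pathway included genes with larger changes under CT99021. The background for their counts was 20.6% of all genes in GW3965+CT99021 against GW3965 and 15.8% in CT99021 against Control. Among 4 further R-spondin receptors and E3 ligases, Znrf3 and Rnf43 rose and 0 fell in GW3965+CT99021 against GW3965 and in CT99021 against Control (median log2 fold changes 0.42 and 0.58, against 0.01 and 0.02 over all genes). These are the ligases that R-spondins restrain. Znrf3 averaged 87.3 ± 24.0 CPM with GW3965+CT99021 and 54.6 ± 17.2 with GW3965 (SD, n = 3), a log2 fold change of 0.69 ± 0.08 (edgeR adjusted p = 6.7e-04), and 0.61 ± 0.08 in CT99021 against Control (adjusted p = 0.00149). Rnf43 averaged 7.21 ± 2.32 CPM with GW3965+CT99021 and 2.60 ± 2.12 CPM with GW3965, a log2 fold change of 1.51 ± 0.36 (adjusted p = 0.0157), and 1.38 ± 0.34 in CT99021 against Control (0.0247). Its log2 ratios for numbers 1, 2 and 3 were 1.38, 1.01 and 3.05 against GW3965, whose lowest library had only 0.402 CPM. In CT99021 against Control they were 1.46, 1.36 and 1.18. Lgr5, a stem cell receptor for R-spondins, had -0.31 ± 0.11 and 0.12 ± 0.11 and did not pass (edgeR adjusted p = 0.0793 and 0.487).

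Among 12 other secreted or surface inhibitors, 10 were tested, and 3 rose and 1 fell in both contrasts (median log2 fold changes 0.36 and 0.39). Over all genes, 20.6% and 15.8% passed in these contrasts. Notum, a secreted deacylase that inactivates Wnt, rose by 2.84 ± 0.17 against GW3965 and 2.68 ± 0.16 against Control (edgeR adjusted p = 2.8e-05 and 3.8e-05). Apcdd1, a membrane inhibitor, rose by 0.68 ± 0.20 and 0.66 ± 0.20 (0.0358 and 0.0472). Dkk4, a Dickkopf inhibitor, rose to 56 counts over the 3 GW3965+CT99021 libraries, against 0 with GW3965. That is at least 19.8-fold higher, taking 3 counts in the group as the floor. With CT99021 it had 89 counts, against 1 in Control. Sostdc1, a secreted inhibitor related to sclerostin, fell to 7.89 ± 1.40 CPM with GW3965+CT99021, against 15.5 ± 3.70 with GW3965 (-0.98 ± 0.17, adjusted p = 0.00427), and fell by 1.03 on the log2 scale in CT99021 against Control (0.00457). Dkk2 fell in GW3965+CT99021 against Control only among the 3 contrasts, with -1.16 ± 0.31 (adjusted p = 0.0259), and had -0.96 ± 0.31 and -0.91 ± 0.31 in the other two (0.0539 and 0.074). Of 4 co-receptors and Kremen genes and of 2 genes of Wnt secretion, 0 passed in any of these contrasts by edgeR with the block. In the fit without the block 0 genes of these 4 lists passed.

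**Figure D5:**
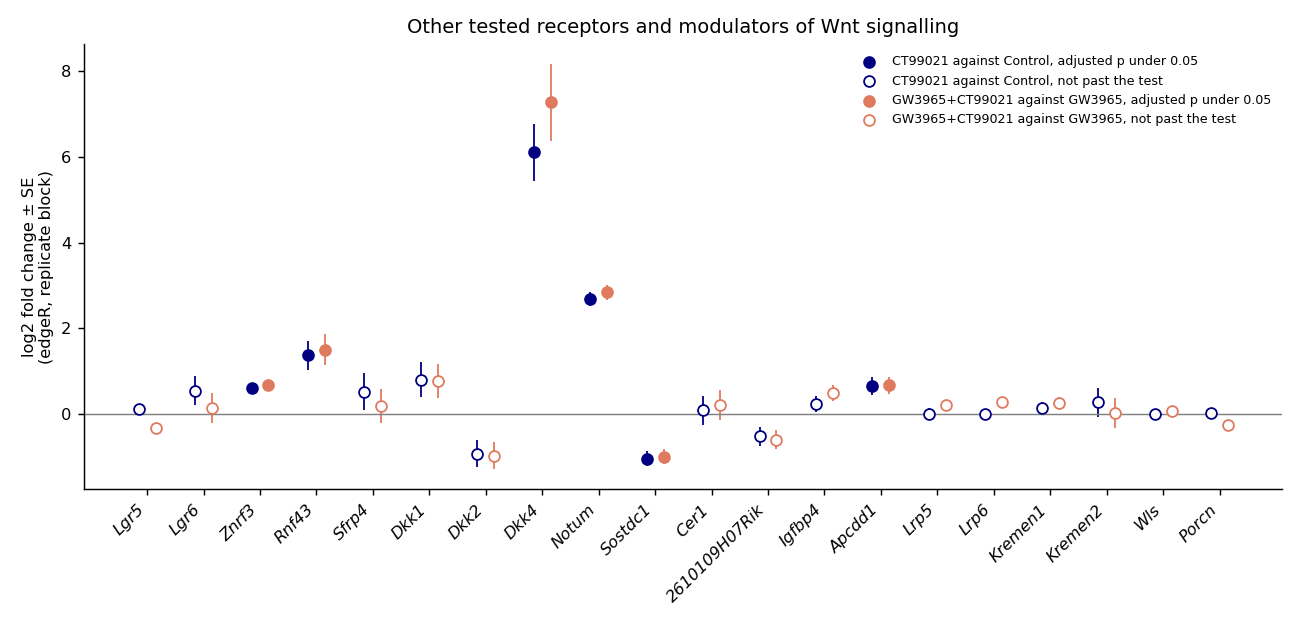
log2 fold change ± SE of 20 other receptors, inhibitors and secretion genes of the pathway, from the blocked edgeR fit, for GW3965+CT99021 against GW3965 (orange) and CT99021 against Control (navy). Filled points (adjusted p under 0.05) are Znrf3, Rnf43, Dkk4, Notum and Apcdd1 above 0 and Sostdc1 below it.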

How the data were processed

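Whole-culture RNA of 12 libraries was sequenced. The authors deposited raw counts per gene beside a transcript length, per the file headers. The submitters' processing notes name Bowtie and the mm9 build. The counter, the annotation, strand use and the handling of multi-mapping reads were not found in the labels or headers. Positions are as listed in the table. The 1217 repeat rows (0.196% to 0.643% of counts) were left out. Libraries of a group differed by more than sampling noise (chi-square per gene 29 to 141).

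All gene rows were fitted with edgeR 4.0.16 in R 4.3.3 (quasi-likelihood F test, TMM, filterByExpr, 1 mean per group, Benjamini-Hochberg adjustment over 15608 genes, threshold 0.05), and once more with the replicate number as block. Deviations of same-numbered libraries from their group means correlated in all 18 pairs (median r = 0.763; different numbers -0.694 to 0.271). The numbers were therefore taken to pair the libraries, which the data show and the labels do not state. The biological coefficient of variation was 12.7% in the blocked fit and 33.4% in the unblocked one. DESeq2 1.42.0 served as an alternative. SE is the log2 fold change over the root of F, ± after CPM is SD over 3 libraries, and log2 ratios within a number use a prior count of 2. Intervals of count ratios are exact binomial (95%). The fits were tested on simulated data. All 10 members are reported. From lists of receptors, inhibitors and markers, genes that passed in a contrast are named, and Axin2, Lef1 and Srebf1 as checks of the treatment. Lgr5, Lmx1a, Otx2, Pdgfrb and Hes5 did not pass and were named after their values were seen. Members and lists were chosen with earlier results of these data known.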

Additional observations from a re-analysis of the deposited data

Results flagged for a closer look

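The pairs of Frzb differed in sign between the 2 contrasts of GW3965, although neither change passed the test. With GW3965+CT99021 it was higher than with CT99021 in 3 of 3 numbered pairs (log2 ratios 0.57, 0.48 and 0.08; log2 fold change 0.33 ± 0.28, edgeR adjusted p = 0.824), and with GW3965 it was lower than in Control in 3 of 3 pairs (-0.14, -0.07 and -1.00; -0.32 ± 0.28, edgeR adjusted p = 0.959). The difference itself, the interaction, was 0.65 ± 0.40 on the log2 scale and did not pass (edgeR adjusted p = 0.999 with the block).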

How the results depend on the processing

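Without the replicate block 0 of 9 members (10 where no filter was used) passed in any contrast, under any tool, scaling, filter or left-out library. With the block, 1 passed in CT99021 against Control, 1 in GW3965+CT99021 against Control and 2 in GW3965+CT99021 against GW3965, and the same numbers passed with DESeq2, with RLE factors and without a filter. Leaving out 1 library gave 0 to 2, 0 to 3 and 1 to 4, the 8 libraries not numbered 3 gave 4, 4 and 5, and the 7 that also lack GW3965+CT99021 replicate 2 gave 5, 2 and 3. In those 7, GW3965+CT99021 has 1 library, assumed to vary like the others. In the contrasts of GW3965 and in the interaction 0 members passed under every alternative run. The cause of these differences was not tested.

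Over all genes, edgeR without the block called 9, 18 and 12 in the 3 contrasts with CT99021, DESeq2 321, 573 and 464, edgeR with the block 2470, 3163 and 3218, and DESeq2 with it 2903, 3494 and 3416. In GW3965 against Control and GW3965+CT99021 against CT99021 it was 0 and 0, 2 and 2, 3 and 3, and 7 and 13.

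In the 8 libraries the log2 fold change turned for Rspo1 in CT99021 against Control (-0.51), Sfrp2 against Control (0.05) and GW3965 (-0.02) with GW3965+CT99021, and Frzb in GW3965+CT99021 against GW3965 (-0.17). In the 7 it was -0.52 for that Rspo1 value, 0.30 for Sfrp2 in GW3965+CT99021 against Control and -0.11 for that Frzb value. With 1 library left out and no block, Rspo2 ranged from -1.73 to 0.30 in CT99021 against Control, -2.11 to 0.36 in GW3965+CT99021 against Control and -2.22 to 0.24 against GW3965, turning only without the Control or GW3965 replicate 3. Other ranges that crossed 0 in CT99021 against Control were -0.26 to 0.51 for Lgr4, -0.76 to 0.88 for Rspo1 (-0.55 to 0.62 with the block), -0.49 to 0.32 for Sfrp1 (-0.27 to 0.08, and 0.01 without CT99021 replicate 1) and -0.07 to 0.41 for Sfrp2. For GW3965+CT99021 against Control they were -0.11 to 0.49 for Dkk3, -0.42 to 0.19 for Frzb, -0.14 to 0.62 for Lgr4, -0.03 to 0.54 for Rspo1, -0.09 to 0.46 for Sfrp1 (-0.08 to 0.35) and -0.39 to 0.04 for Sfrp2 (-0.25 to 0.06, and 0.02 without GW3965+CT99021 replicate 2). For GW3965+CT99021 against GW3965 they were -0.03 to 0.67 for Frzb (-0.18 to 0.48) and -0.10 to 0.38 for Sfrp2 (-0.11 to 0.25). With 4 to 14 counts over 3 libraries in some groups, Rspo4 was too shallow for any comparison.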
